A study of Homo sapiens with 9 samples.

Results

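Integrins are the receptors by which epithelial cells hold on to their basement membrane and to the matrix around them. The 10 integrin subunit genes described here are the α chains ITGA2, ITGA3, ITGA5, ITGA6 and ITGAV and the β chains ITGB1, ITGB4, ITGB5, ITGB6 and ITGB8. They were chosen by name as the subunits usual in epithelium and were matched by symbol to the Ensembl identifiers of the count data, in which all 10 were found among 61544 listed genes. The other 16 of the 26 human integrin subunits were used for comparison.

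An integrin is a heterodimer of 1 α and 1 β chain, and the pairing sets the ligand. ITGB1 pairs with many α chains, ITGA2 (with ITGB1) binds collagen, ITGA5 (with ITGB1) binds fibronectin, and ITGA3 (with ITGB1) and ITGA6 (with ITGB1 or ITGB4) bind laminins. ITGB4 pairs with ITGA6 only, and the α6β4 integrin links laminin to keratin filaments in hemidesmosomes through plectin. ITGAV pairs with ITGB1, ITGB3, ITGB5, ITGB6 and ITGB8, receptors for RGD-bearing ligands such as vitronectin, fibronectin and the latency peptides of TGF-β. Pairing takes place in the ER, where chaperones attend the folding of the chains. RNA-Seq measures the messages of the subunits, not the dimers at the cell surface.

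The libraries came from H1975 cells, a human lung adenocarcinoma line with mutant EGFR. All 3 groups were first depleted of endogenous GRP78, the ER chaperone encoded by HSPA5, with an siRNA (si78, 24 h) whose target lies outside the coding sequence, and a plasmid followed (48 h). The plasmid was the empty pcDNA3 in the group labelled Vector, FLAG-tagged wild-type GRP78 in the group labelled WT, and in the group labelled NLS Mut the same protein with alanine in place of 3 lysines of its nuclear localization signal. Each group had 3 libraries, so 9 in all, and every group thus carried the siRNA. The comparison of WT with NLS Mut asks which messages depend on an intact localization signal when the 2 forms are overexpressed, and both are compared with Vector. The model is 1 cell line under transient overexpression. The labels do not say whether replicates were separate cultures, so the p-values measure only the spread between these libraries, which may be technical.

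Each library had 17671055 to 27476298 reads counted on genes, and these made up 69.3% to 72.4% of its reads. HSPA5, counted through the coding exons that the plasmid also carries, stood at 359 to 391 CPM (the count scaled to library size by TMM) in Vector, at 5031 to 6145 CPM in WT and at 4765 to 5156 CPM in NLS Mut, as the labels would have it. The log2 difference between WT and NLS Mut was 0.19 (adjusted p = 0.0795 by edgeR), and 9 of 19 alternatives called it. The part of this difference in the results was not tested. All 7 epithelial markers (EPCAM, CDH1, KRT7, KRT8, KRT18, KRT19 and CLDN4) were detected, with a summed level of 4688 to 5515 CPM. Of the lineage markers of lung adenocarcinoma, NKX2-1 was present at a mean of 27.3 CPM, while NAPSA (2.04 CPM), SFTPB (0.394 CPM) and SFTPC (0.0426 CPM) were low. Blood and endothelial markers summed to at most 10.7 and 8.82 CPM in any library. Among the mesenchymal markers VIM was present at a mean of 531 CPM, and DCN was at 0 in all libraries. Vector replicate 1 stood apart from the other 2 Vector libraries, with a chi-square per degree of freedom of 11.3 and 12.6 against them, where Vector replicates 2 and 3 gave 4.42. The libraries also differed in how counts followed the GC content of genes. Relative to the mean library, the log2 level changed per 10 percentage points of GC by 0.10 and 0.11 in Vector replicates 2 and 3, and by between -0.08 and 0.03 in the other 7 libraries.

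All 10 subunits were tested in the fit of edgeR's quasi-likelihood test to 18653 genes, with Benjamini-Hochberg adjustment over all of them. ITGB4 was the only subunit to pass the threshold of 0.05. It was higher in WT than in NLS Mut, so 1 of 10 members was called higher, where 0.3% of all genes were, and 0 were called lower, where 0.204% of all genes were. Against Vector, 0 members were called higher and 0 lower in WT, with 0.214% and 0.343% of all genes. In NLS Mut, 0 members were called higher than Vector and 1, again ITGB4, was called lower, with 0.295% and 0.499% of all genes. The study labelled ITGB4 on a plot of these same libraries, so its presence among the members is not independent of its values. The 2 comparisons with Vector share the Vector libraries. Both calls of ITGB4 use the same NLS Mut libraries, so they are not 2 separate results. The same holds for other genes called in both of these comparisons. The counts ignore strand, but no other gene shares exonic bases with ITGB4, and the genes that overlap the exons of other members had mean counts of at most 58.4 reads per library.

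**Figure D1:**
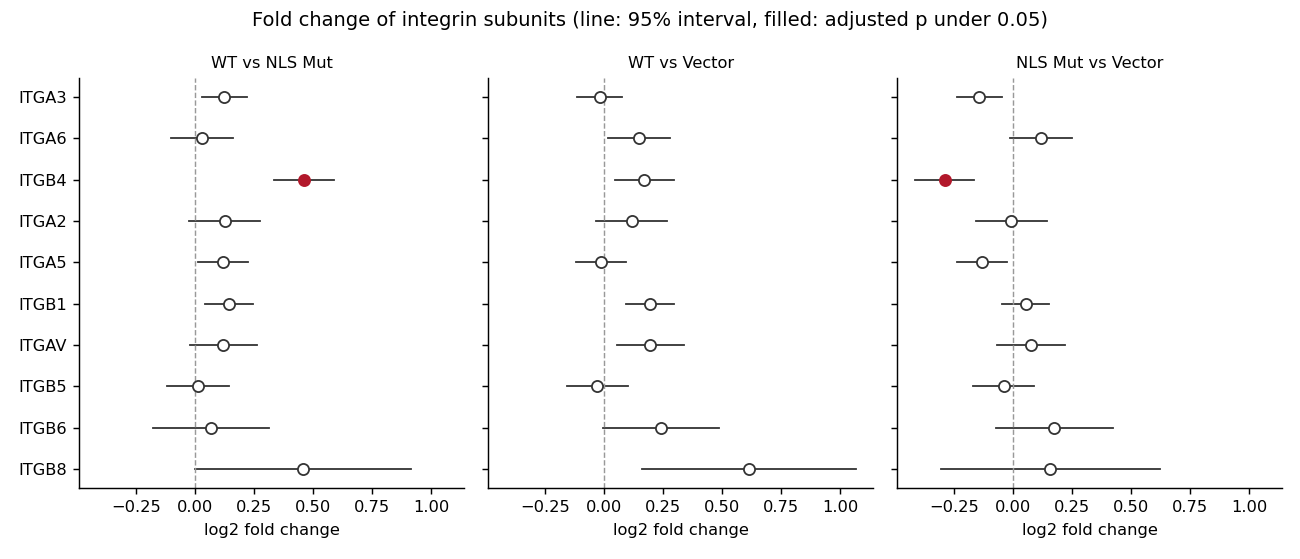
Log2 fold change (horizontal axis) of the 10 integrin subunits in the 3 comparisons of groups of 3 libraries, with the 95% interval as a line and a filled point where the adjusted p from edgeR's quasi-likelihood test was under 0.05. Only ITGB4 is filled, at 0.46 between WT and NLS Mut and at -0.29 between NLS Mut and Vector.

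The direction was more uniform than the calls. All 10 members had a positive log2 fold change between WT and NLS Mut, with a median of 0.12 and a range of 0.01 to 0.46, beside a median of -0.01 over all genes, of which 48.9% were positive. Against Vector, WT had 7 positive and 3 negative members (median 0.16), and NLS Mut had 5 and 5 (median 0.02), with medians of all genes of -0.00228 and -0.00174. An unadjusted p under 0.05 was found for 5, 5 and 3 members in the 3 comparisons, beside 11.6%, 11.7% and 12.2% of all genes. DESeq2 called 1 (ITGB4), 1 (ITGB1) and 2 (ITGA3 and ITGB4), beside 288, 248 and 408 of 35836 genes. In 6 members (ITGB4, ITGB1, ITGA3, ITGA5, ITGAV and ITGB8) every WT library lay above every NLS Mut library, as was the case for 8.25% of all genes, and in 0 members did every one lie below, as for 9.42%. Against Vector, 4 members (ITGB4, ITGB1, ITGA6 and ITGB8) lay wholly above in WT, beside 6.53% of all genes, and 0 wholly below, beside 6.54%. In NLS Mut, 0 lay wholly above Vector, beside 9.28%, and 2 (ITGB4 and ITGA3) wholly below, beside 8.82%. The members are not replicates of each other, and these counts carry no test of the family.

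Levels were compared between subunits per length of exon, as CPM per kilobase. ITGB1 was the most abundant, at a mean of 175 CPM per kilobase over the 9 libraries (158 to 197), followed by ITGA3 at 104 (95 to 111) and ITGA5 at 79.9 (72.9 to 86.2). The ranges of these 3 did not touch. Next came ITGB5 (26.5), ITGAV (25.5), ITGB4 (23.2), ITGA6 (20.7) and ITGA2 (19.96 CPM per kilobase), and each of these overlapped its neighbour in the order. ITGB6, the αv partner restricted to epithelium, followed at 6.08 CPM per kilobase, and ITGB8 was last at 0.278. Both lay apart from the subunits above them in every library.

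**Figure D2:**
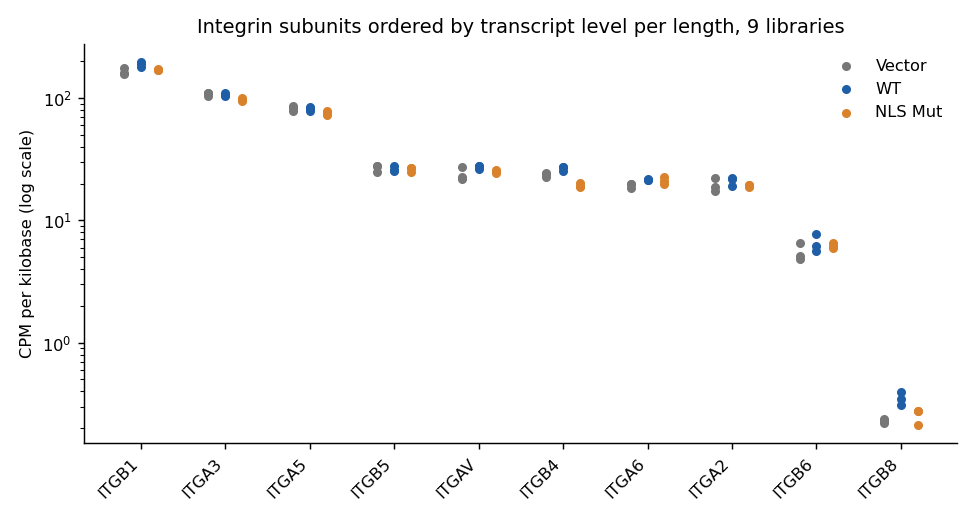
Transcript level of the 10 integrin subunits in CPM per kilobase of exon on a log scale, each point a library and each colour a group of 3 libraries. ITGB1, ITGA3 and ITGA5 stand above the rest, ITGB5, ITGAV, ITGB4, ITGA6 and ITGA2 form a band whose neighbours overlap, and ITGB6 and ITGB8 lie below.

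ITGB4 (ENSG00000132470.14, chromosome 17, 75721328 to 75757818 on the plus strand in GRCh38) encodes the β chain with the long cytoplasmic tail that docks plectin. Its level in the 3 Vector libraries was 153, 162 and 165 CPM. In the WT libraries it was 183, 184 and 172 CPM, and in the NLS Mut libraries 137, 128 and 127 CPM. The 3 groups did not overlap, with WT highest, Vector between and NLS Mut lowest. Between WT (180 ± 6.79 CPM, SD, n = 3) and NLS Mut (131 ± 5.81 CPM) the log2 fold change was 0.46 (SE 0.06, 95% interval 0.33 to 0.59, adjusted p = 1.18e-04 by edgeR's quasi-likelihood test), a level 1.38 times as high. Under all 19 alternative settings, including the omission of each library, it stayed between 0.44 and 0.51 with an adjusted p of at most 0.00541.

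The position of Vector between them was less certain. ITGB4 fell by 0.29 on the log2 scale in NLS Mut against Vector (SE 0.06, adjusted p = 0.0178 by edgeR), and the call held in 13 of 19 alternatives. It was lost by edgeR, at adjusted p = 0.1, 0.0949, 0.147 and 0.14, without Vector replicate 2, Vector replicate 3, NLS Mut replicate 2 or NLS Mut replicate 3, although the log2 change stayed between -0.28 and -0.33 under omission of any library. Against Vector the log2 change in WT was 0.17 (SE 0.06, adjusted p = 0.239). The longest transcript of ITGB4 has a GC content of 63.7%, the highest of the 10 members. After a correction of each library for gene GC content and length the difference between WT and NLS Mut was 0.45 (adjusted p = 6.11e-06), while that between NLS Mut and Vector shrank to -0.14 (adjusted p = 0.254) and that between WT and Vector grew to 0.31 (adjusted p = 0.0015). Thus the difference between WT and NLS Mut did not depend on this correction. Vector stayed between them, but its distance from each, and which of these 2 comparisons passed, did depend on it.

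Of the 7 epithelial markers, CDH1 and KRT19 passed the test between WT and NLS Mut, in the direction of ITGB4. Between these groups 0.3% of all genes were called higher in WT and 0.204% lower. CDH1, the E-cadherin gene, was higher in WT (311 ± 24.1 CPM) than in NLS Mut (258 ± 4.34 CPM), with an adjusted p of 0.0364, and it was lower in NLS Mut than in Vector (log2 -0.25, adjusted p = 0.0437). KRT19 stood at 871 and 740 CPM in WT and NLS Mut, with an adjusted p of 0.0438. The other 5 epithelial markers did not pass the test between WT and NLS Mut. Of these, KRT8 (1644 against 1480 CPM), KRT18 (540 against 495) and CLDN4 (339 against 326) had the higher mean in WT. EPCAM (196.6 against 196.9 CPM) and KRT7 (1247 against 1275) had the higher mean in NLS Mut. The 7 markers together summed to 5107 to 5216 CPM in WT, 4688 to 4887 CPM in NLS Mut and 4789 to 5515 CPM in Vector. Their part in the ITGB4 result was not tested. In bulk RNA a smaller share of cells that make a message and less message per cell cannot be told apart.

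**Figure D3:**
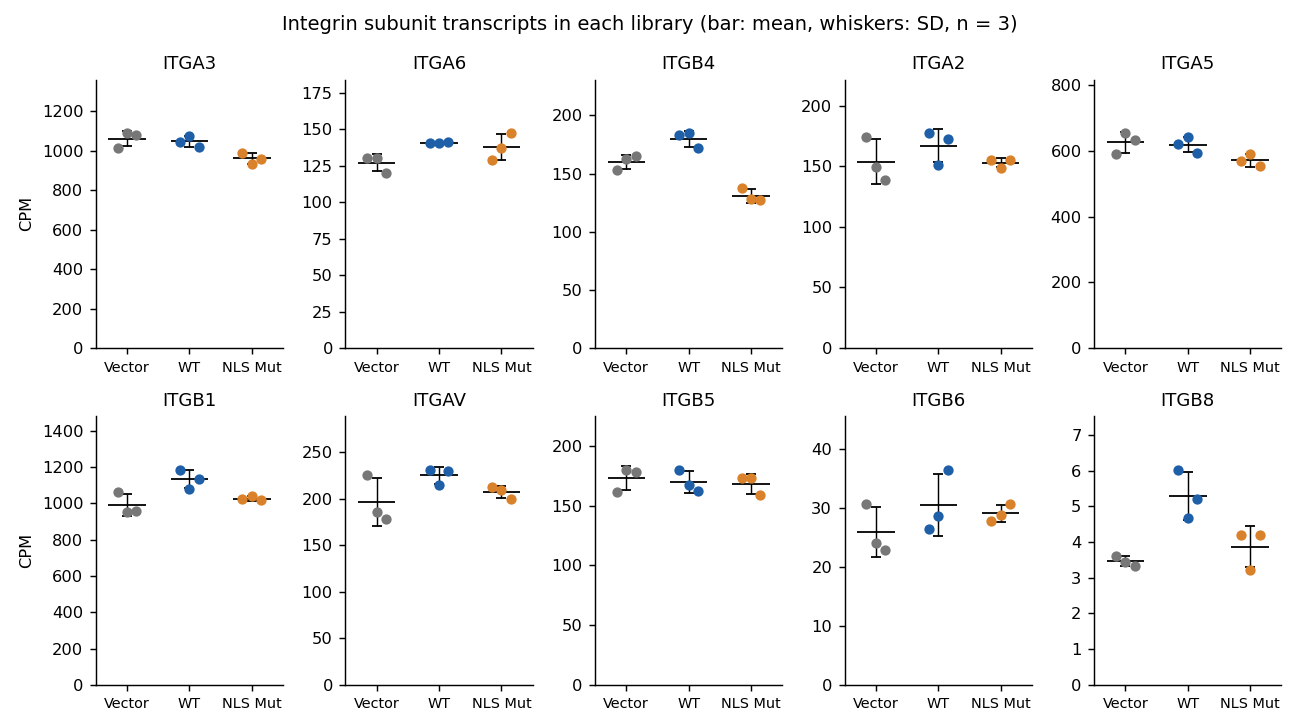
Level of each integrin subunit in CPM (vertical axes from 0) in the 3 libraries of Vector, WT and NLS Mut, with the mean as a bar and the SD as whiskers. The ITGB4 libraries separate by group, at 172 to 184 CPM in WT, 153 to 165 CPM in Vector and 127 to 137 CPM in NLS Mut.

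ITGA6 (ENSG00000091409.16, chromosome 2, 172427354 to 172506282, plus strand), the sole α partner of ITGB4, stood at 130, 130 and 120 CPM in Vector, at 141, 140 and 141 CPM in WT, and at 129, 137 and 147 CPM in NLS Mut. The WT libraries were almost identical and lay inside the range of the NLS Mut libraries. The log2 difference between those groups was 0.03 (95% interval -0.10 to 0.16, adjusted p = 0.917), an interval that leaves out changes as large as that of ITGB4. Against Vector, ITGA6 differed by 0.15 in WT and by 0.12 in NLS Mut, with adjusted p of 0.342 and 0.468.

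The study's question concerns ID2, an inhibitor of factors that bind E-boxes (CANNTG), so the 250 bases before the transcription starts of the members were searched for these letters on both strands, which the palindrome CANNTG reads alike. Windows from RefSeq (GRCh38.p14) were matched for 8 of the 10 members, in 13 windows because some genes have several starts; ITGB4 and ITGA3 were not matched. The letters CANNTG were in 6 of 13 windows and in 5 of 8 genes, beside 61.8% of all 34788 windows of that length. The richest was the upstream window of ITGA6, with 7 matches, beside a median of 1 per window. It is shown with an ITGAV window that has none, both from the windows that hold no annotated exon. Such windows of ITGB1 and ITGB5 also have none. For both windows shown, the bases just after the start were not found in a GENCODE transcript of the gene. Capitals mark CANNTG, and both are read on the plus strand, 5′ to 3′.
ITGA6, chr2:172427086-172427335: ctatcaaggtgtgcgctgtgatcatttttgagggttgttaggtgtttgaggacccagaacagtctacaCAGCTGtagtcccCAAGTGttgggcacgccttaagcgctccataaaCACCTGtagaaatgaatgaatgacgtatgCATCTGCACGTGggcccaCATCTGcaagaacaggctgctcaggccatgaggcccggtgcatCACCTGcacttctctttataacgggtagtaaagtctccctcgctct
ITGAV, chr2:186589806-186590055: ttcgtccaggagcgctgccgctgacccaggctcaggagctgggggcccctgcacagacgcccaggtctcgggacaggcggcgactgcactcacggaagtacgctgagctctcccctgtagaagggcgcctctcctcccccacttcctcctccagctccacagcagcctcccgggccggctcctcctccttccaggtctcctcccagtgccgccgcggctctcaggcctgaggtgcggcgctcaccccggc

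Among the matches in the ITGA6 window is the form CACGTG, which 1 of 8 member genes and 6.31% of all windows hold. CAGCTG was in the windows of 2 member genes (14% of all windows) and CAGGTG or its reverse complement CACCTG in those of 3 (17.5%). The AP-1 type letters TGANTCA were in 0 of the 13 windows, beside 6.59% of all. The other ITGA6 window held 2 matches of CANNTG and the other ITGAV window 1. ITGB4 had no window, and the relation of these letters to the changes was not tested. A match is a description of the letters and not a bound site.

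ITGA3 (ENSG00000005884.18, chromosome 17, 50055968 to 50090481, plus strand) encodes the α chain of the other main laminin receptor of epithelium, α3β1. It stood at 1016, 1087 and 1079 CPM in Vector, at 1045, 1076 and 1018 CPM in WT, and at 989, 932 and 960 CPM in NLS Mut. NLS Mut lay below both other groups without overlap, and the step was small. The log2 difference was 0.12 between WT and NLS Mut (95% interval 0.03 to 0.22, adjusted p = 0.261) and -0.14 between NLS Mut and Vector (95% interval -0.24 to -0.05, adjusted p = 0.157). The latter was called by DESeq2 (adjusted p = 0.0328) and without Vector replicate 1 (adjusted p = 0.00475). It was smallest, at -0.03, after correction for gene GC content and length, and the transcript has a GC content of 61.3%.

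ITGB1 (ENSG00000150093.20, chromosome 10, 32900319 to 33005792, minus strand), the β chain shared by the collagen, fibronectin and laminin receptors, had, over the 3 comparisons, the smallest adjusted p of the members other than ITGB4. It stood at 1060, 950 and 960 CPM in Vector, at 1183, 1081 and 1136 CPM in WT, and at 1022, 1040 and 1018 CPM in NLS Mut. Every WT library lay above the 6 others. The log2 difference from Vector was 0.19 (95% interval 0.09 to 0.30, adjusted p = 0.0629), and 5 of 19 alternatives called it, among them DESeq2 (adjusted p = 0.00885) and the replicate block (adjusted p = 0.0255). The difference from NLS Mut was 0.14 (95% interval 0.04 to 0.24, adjusted p = 0.208) and was called in 4 of 19. ITGB1 was thus near the threshold, on different sides of it by setting, with changes of at most 0.24 on the log2 scale in either comparison.

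ITGA5 (ENSG00000161638.11, chromosome 12, 54395261 to 54419460, minus strand), the α chain of the fibronectin receptor, stood at 590, 653 and 634 CPM in Vector, at 621, 642 and 594 CPM in WT, and at 570, 591 and 552 CPM in NLS Mut. WT lay above NLS Mut by a narrow margin, with a log2 difference of 0.12 (95% interval 0.01 to 0.22, adjusted p = 0.372). Against Vector, NLS Mut differed by -0.13 (adjusted p = 0.273), and by -0.18 (adjusted p = 0.0135) without Vector replicate 1. ITGA2 (ENSG00000164171.11, chromosome 5, 52989326 to 53094779, plus strand), the α chain of the collagen receptor, stood at 174, 149 and 138 CPM in Vector, at 177, 151 and 172 CPM in WT, and at 155, 148 and 155 CPM in NLS Mut. Its groups overlapped in all 3 comparisons, and its log2 difference between WT and NLS Mut was 0.13 (95% interval -0.02 to 0.28, adjusted p = 0.54).

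ITGAV (ENSG00000138448.12, chromosome 2, 186590065 to 186680901, plus strand), the α chain common to the receptors for vitronectin and latent TGF-β, stood at 226, 186 and 178 CPM in Vector, at 231, 215 and 229 CPM in WT, and at 212, 210 and 200 CPM in NLS Mut. Vector replicate 1 was the high library of its group. The log2 difference between WT and NLS Mut was 0.12 (95% interval -0.02 to 0.26, adjusted p = 0.537), and that between WT and Vector 0.19 (adjusted p = 0.231). Without Vector replicate 1 the latter was 0.30 (adjusted p = 4.6e-04), the only 1 of 19 alternatives that called it. Over the alternatives it ranged from 0.13 to 0.30. In NLS Mut against Vector the difference was 0.08 (adjusted p = 0.724), and 0.18 (adjusted p = 0.0485) without it. The omission of the same library also brought ITGA2 (0.21, adjusted p = 0.0357) and ITGB1 (0.24, adjusted p = 1.75e-04) past the threshold between WT and Vector. With that omission 1256 of 19857 genes were called. The Vector libraries then left have GC trends of 0.10 and 0.11, and ITGAV, ITGA2 and ITGB1 have GC contents of 38.3%, 40.2% and 40.0%. The part of the GC trend in these calls was not tested.

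ITGB5 (ENSG00000082781.12, chromosome 3, 124761948 to 124901418, minus strand), the β chain of the vitronectin receptor αvβ5, stood at 162, 180 and 179 CPM in Vector, at 180, 168 and 162 CPM in WT, and at 173, 173 and 159 CPM in NLS Mut. It had the smallest log2 difference of the members between WT and NLS Mut, 0.01 with a 95% interval of -0.12 to 0.14. ITGB6 (ENSG00000115221.12, chromosome 2, 160099666 to 160200313, minus strand), whose dimer with ITGAV activates latent TGF-β in epithelium, stood at 30.7, 24.1 and 22.8 CPM in Vector, at 26.4, 28.7 and 36.4 CPM in WT, and at 27.8, 28.8 and 30.6 CPM in NLS Mut. Its spread within WT, a CV of 17.2%, was the widest of any member and group, and no comparison passed the test.

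ITGB8 (ENSG00000105855.10, chromosome 7, 20330702 to 20415754, plus strand), another αv partner that presents latent TGF-β, was barely expressed, with 74 to 133 reads per library. It stood at 3.60, 3.44 and 3.33 CPM in Vector, at 6.01, 4.66 and 5.21 CPM in WT, and at 4.20, 3.22 and 4.20 CPM in NLS Mut. Every WT library lay above the 6 others, and the log2 differences were 0.46 from NLS Mut (95% interval 0.00115 to 0.91, adjusted p = 0.43) and 0.61 from Vector (95% interval 0.16 to 1.07, adjusted p = 0.239). With so few reads the intervals are the widest of the members.

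Because dimers need both chains, the ratio of subunit messages within a library was compared between groups by exact permutation tests, 2-sided, of 3 libraries against 3, which cannot go below p = 0.1. There were 12 such tests, of 4 ratios in 3 comparisons. The ratio of ITGB4 to ITGA6 per kilobase was 1.13, 1.20 and 1.32 in Vector, 1.26, 1.27 and 1.18 in WT, and 1.03, 0.900 and 0.833 in NLS Mut. The NLS Mut libraries lay below the 6 others, and the means were 1.22, 1.23 and 0.920. On the log2 scale WT exceeded NLS Mut by 0.43 (p = 0.1 in the exact test, adjusted 0.3) and Vector by 0.02 (p = 0.9 in the exact test). NLS Mut differed from Vector by -0.41 (p = 0.1 in the exact test, adjusted 0.3). Since ITGB4 is a member of this ratio, the result is not separate from its own difference. ITGB4 and ITGA6 have GC contents of 63.7% and 42.9%, and no ratio was corrected for the GC trends of the libraries. The part of these trends in the ratios was not tested.

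The ratio of ITGB1 to the sum of its 5 α partners among the members was 0.650 in Vector, 0.730 in WT and 0.715 in NLS Mut on average, so the shared β message was below the sum of the α messages in every library. NLS Mut lay above Vector without overlap (log2 difference 0.14, p = 0.1 in the exact test, adjusted 0.3), while WT overlapped both other groups. Vector replicates 2 and 3, with GC trends of 0.10 and 0.11, had ratios of 0.611 and 0.636. Vector replicate 1, at 0.703, lay just below the lowest NLS Mut library, at 0.705. ITGB1 has a GC content of 40.0%, and ITGA3 and ITGA5 have 61.3% and 54.5%. The ratio of ITGB6 to ITGB5 ranged from 0.176 to 0.308 over the 9 libraries, and its groups overlapped. The ratio of ITGAV to the sum of ITGB5, ITGB6 and ITGB8 had means of 0.736, 0.825 and 0.773 in Vector, WT and NLS Mut, and WT lay above NLS Mut without overlap (log2 difference 0.09, p = 0.1 in the exact test, adjusted 0.3). Of the message of the 5 β chains per kilobase, ITGB1 made up 73.4% to 77.1% and ITGB4 10.7% in Vector, 10.7% in WT and 8.69% in NLS Mut. Of that of the 5 α chains, ITGA3 made up 39.9% to 43.8% and ITGA6 7.33% to 9.50%.

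**Figure D4:**
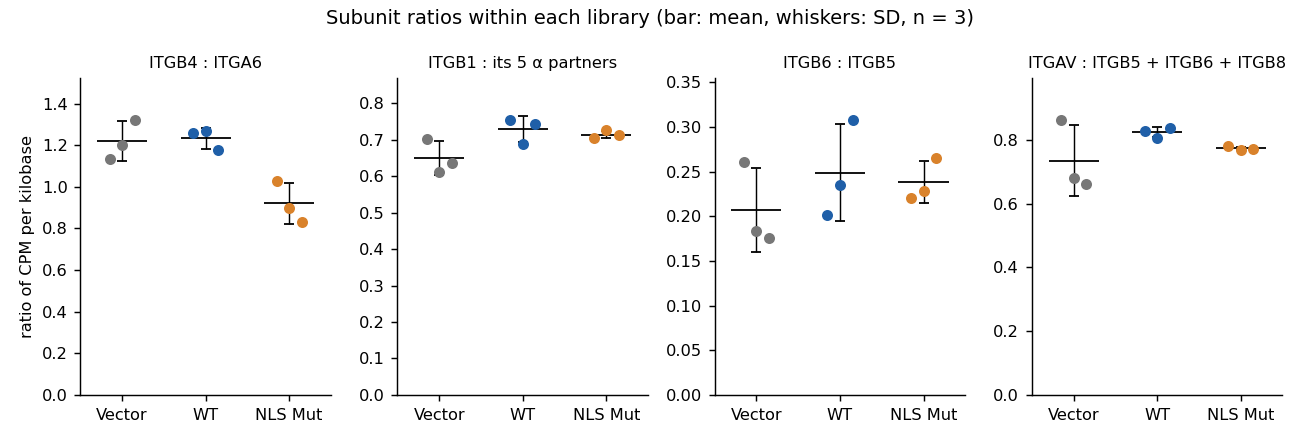
Ratios of subunit messages (CPM per kilobase) in each library, with the mean as a bar and the SD as whiskers for the 3 libraries of a group. The ITGB4 to ITGA6 ratio is 0.833 to 1.03 in the NLS Mut libraries and 1.13 to 1.32 in the other 6, while the other ratios overlap or differ by less.

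Across the 9 libraries, which include the differences between groups, ITGAV and ITGB1 varied together most closely (Pearson r 0.91 of log2 CPM, n = 9), followed by ITGA2 and ITGAV (0.87) and by ITGA3 and ITGA5 (0.85). ITGB4 varied with ITGA3 (0.84) and ITGA5 (0.76) and not with ITGA6 (-0.08). ITGB5 and ITGB6 ran opposite to each other (-0.83). These groupings also follow base composition, since ITGB4, ITGA3 and ITGA5 have GC contents of 63.7%, 61.3% and 54.5% and ITGAV, ITGB1 and ITGA2 of 38.3%, 40.0% and 40.2%, in libraries that differ in their GC trend. The part of base composition was not tested.

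The genes most like ITGB4 among the 10070 genes averaging 10 CPM or more were FADS2 (r 0.97), LLGL1 (0.97), C3 (0.96), UBA7 (0.96) and FBLN2 (0.96, n = 9). FADS2 encodes a fatty acid desaturase, LLGL1 a cell polarity protein, C3 the central complement component, UBA7 the activating enzyme of ISG15 and FBLN2 the matrix protein fibulin-2. C3 stood at 590, 659 and 472 CPM and FBLN2 at 166, 174 and 137 CPM on average in Vector, WT and NLS Mut, the order that ITGB4 had. The genes were picked by their correlation with ITGB4 in these libraries, so this shared order follows from the choice. Their GC contents, 56.5% to 61.9%, lie close to those of ITGB4 and ITGA3.

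The messages of the ligands of these receptors were compared next. For this and the lists that follow, 0.3% of all genes were called higher and 0.204% lower between WT and NLS Mut. The shares were 0.214% and 0.343% between WT and Vector, and 0.295% and 0.499% between NLS Mut and Vector. An unadjusted p under 0.05 by edgeR was found for 11.6%, 11.7% and 12.2% of all genes. DESeq2 called 288, 248 and 408 of 35836 genes. Of 10 laminin chains tested, 2 were higher in WT than in NLS Mut, 0 were lower and 8 did not pass, with a median log2 fold change of 0.17. LAMA5, the α5 chain that ITGA3 and ITGA6 dimers bind, stood at 278 ± 5.32 CPM in WT and 197 ± 8.96 CPM in NLS Mut (log2 0.50, SE 0.06, adjusted p = 2.33e-05 by edgeR). LAMB2 stood at 502 ± 13.9 and 394 ± 8.05 CPM (log2 0.35, adjusted p = 3.18e-04 by edgeR). LAMA5 and LAMB2 also fell against Vector in NLS Mut, by 0.45 and 0.33, and all 19 alternatives kept both calls in both comparisons. After correction for gene GC content and length these changes against Vector were smaller, -0.28 and -0.22, while those between WT and NLS Mut were 0.50 and 0.33. The epithelial chains LAMA3 and LAMB3 had log2 fold changes of 0.13 and 0.02 between WT and NLS Mut, with adjusted p of 0.399 and 0.93. Against Vector, 0 of 10 passed in WT by edgeR or DESeq2, and 3 had an unadjusted p under 0.05.

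In the hemidesmosome list, 5 of 6 genes were tested. COL17A1, the transmembrane collagen that joins α6β4 there, was higher in WT (71.7 ± 2.00 CPM) than in NLS Mut (54.9 ± 3.51 CPM), with a log2 change of 0.39 and an adjusted p of 0.0244. The call held in 15 of 19 alternatives and was lost without WT replicate 1 or 3 or NLS Mut replicate 1 or 2 (adjusted p of 0.0666 to 0.198, log2 change 0.35 to 0.41). Against Vector (75.6 ± 8.79 CPM) it fell by 0.46 in NLS Mut, with an adjusted p of 0.00329, a call lost only without NLS Mut replicate 2 (adjusted p = 0.071). Between WT and Vector 0 of 5 passed by edgeR or DESeq2, with 2 at an unadjusted p under 0.05. The other 4 did not pass: PLEC, which encodes plectin, differed by 0.08 between WT and NLS Mut, DST by 0.02, CD151 by -0.11 and the scarce KRT14 by 0.68 with an SE of 0.53. So of the genes of this anchor that were well expressed, ITGB4 and COL17A1 passed and ITGA6, PLEC, DST and CD151 did not.

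**Figure D5:**
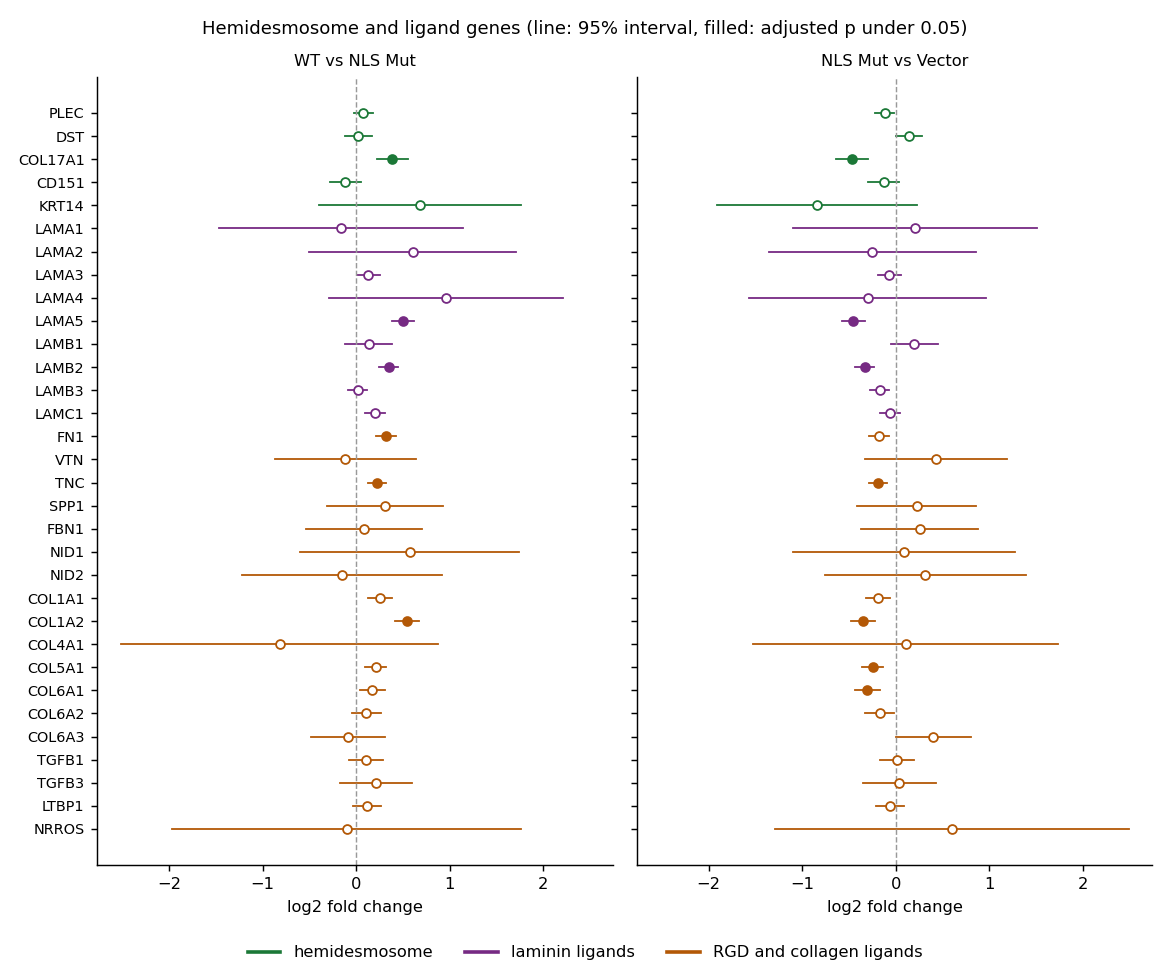
Log2 fold change with its 95% interval for hemidesmosome, laminin and other ligand genes between WT and NLS Mut (left) and between NLS Mut and Vector (right), 3 libraries per group, filled where the adjusted p was under 0.05. LAMA5, LAMB2, COL17A1, COL1A2 and TNC are filled on both sides, to the right of 0 on the left and to the left of 0 on the right. Both sides use the same NLS Mut libraries and are not independent.

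Of 18 fibronectin, collagen and other ligand genes tested, 3 were higher in WT than in NLS Mut and 0 lower, with a median log2 fold change of 0.14. COL1A2 was higher by 0.55 on the log2 scale (197 against 135 CPM, adjusted p = 1.42e-05), FN1, the ligand of the ITGA5 dimer, by 0.32 (1443 against 1153 CPM, adjusted p = 0.0011), and TNC, tenascin C, by 0.22 (815 against 698 CPM, adjusted p = 0.0212). COL1A2 and FN1 were called in all 19 alternatives and TNC in 14, its call being lost without WT replicate 1 or 3 or any NLS Mut library (adjusted p of 0.0543 to 0.154). Against Vector, 0 of 18 passed in WT by edgeR (2 at an unadjusted p under 0.05, 1 by DESeq2), and in NLS Mut 4 were lower (COL1A2, COL6A1, COL5A1 and TNC, by 0.35, 0.30, 0.24 and 0.19 on the log2 scale). The study also named COL1A2 from these libraries. The calls of COL5A1, COL6A1 and TNC against Vector were lost after correction for gene GC content and length and without Vector replicate 2 or 3 or any NLS Mut library, and that of COL1A2 without NLS Mut replicate 2 (adjusted p = 0.0815). The TNC call against Vector held in only 9 of 19 alternatives. It was also lost by edgeR with both strands added, with the 2 groups alone and without WT replicate 3 (adjusted p of 0.0502, 0.0679 and 0.0672). TGFB1, the cargo of the ITGB6 and ITGB8 dimers, stood at 55.5 and 51.6 CPM in WT and NLS Mut (log2 difference 0.10, adjusted p = 0.722).

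Few genes of the cytoplasmic side passed the test. Of 23 adaptors and activators, such as talin (TLN1), kindlins (FERMT1 and FERMT2) and vinculin (VCL), 0 passed in any of the 3 comparisons by edgeR. At an unadjusted p under 0.05 there were 3, 4 and 4, beside 11.6%, 11.7% and 12.2% of all genes. DESeq2 called 2 (KANK2 and TNS2) between WT and NLS Mut and 0 in the other comparisons. Of 15 signalling genes, SHC1, the adaptor that binds the ITGB4 tail, fell by 0.24 in NLS Mut against Vector (178 ± 1.67 against 210 ± 6.79 CPM, adjusted p = 0.036). That call held in 12 of 19 alternatives and was lost after correction for gene GC content and length and without Vector replicate 2 or 3 or any NLS Mut library (adjusted p of 0.127 to 0.196). The remaining 14 did not pass there, and 0 of 15 passed in WT against NLS Mut or Vector by edgeR, where 2 and 3 had an unadjusted p under 0.05 and DESeq2 called 0 and 1 (RHOA).

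Of 13 membrane partners, SLC3A2, the heavy chain CD98 that binds β tails and carries amino acid transporters, was lower in WT (335 ± 30.5 CPM) than in NLS Mut (426 ± 11.9 CPM), by 0.35 on the log2 scale (adjusted p = 0.00548). That call held in 16 of 19 alternatives and was lost without WT replicate 1, NLS Mut replicate 1 or NLS Mut replicate 2 (adjusted p of 0.0799, 0.0714 and 0.0859). It was also lower than in Vector (404 ± 34.9 CPM), by 0.27 (adjusted p = 0.0456), but this call held in only 9 of 19 alternatives, with a log2 change of -0.33 to -0.19 and an adjusted p of up to 0.336. It was lost after correction for gene GC content and length (adjusted p = 0.0548) and without Vector replicate 2 or 3, WT replicate 1 or 3, or any NLS Mut library. CAV1, the caveolin gene, was higher than in Vector (532 ± 21.2 CPM) in both WT (652 ± 7.49 CPM, adjusted p = 0.00198) and NLS Mut (620 ± 4.73 CPM, adjusted p = 0.0212). The former call held in 19 of 19 alternatives and the latter in 14 of 19, being lost without Vector replicate 2 or 3 or any NLS Mut library (adjusted p of 0.11 to 0.154). The tetraspanins CD9, CD63, CD81, CD82 and CD151 did not pass in any comparison.

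Of the other 16 subunits, 12 were tested and 0 passed in any comparison by edgeR or DESeq2, with 0, 2 and 2 at an unadjusted p under 0.05. They were scarce: 10 had a mean of at least 1 CPM. ITGB3, a further αv partner, led with 43.3 CPM, followed by ITGAE (20.04), ITGB2 (9.55), ITGA7 (5.95), ITGA11 (5.07), ITGA2B (3.73), ITGA1 (3.54), ITGAX (3.15), ITGB7 (3.09) and ITGA10 (2.55 CPM). ITGA4 and ITGA8 were at 0 in all 9 libraries. Leukocyte subunits such as ITGAL (0.155 CPM) and ITGAM (0.482 CPM) were near 0, as blood markers were. The median log2 fold change of the 12 was -0.02 between WT and NLS Mut, with 6 positive.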

How the data were processed

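The authors deposited, for each of the 9 libraries, raw read counts per gene in the layout of STAR, not normalized. The submitters' processing notes name STAR 2.7.9a, DESeq2 1.36.0 and GRCh38.p14; the annotation is not given in the sources used here. The unstranded counts were used, because 50.6% to 51.9% of reads fell on the forward strand. The summary lines that name no gene (27.6% to 30.7% of reads) were left out. Symbols were found for 61399 of 61544 genes, and GENCODE release 29 gave coordinates, exonic lengths and GC contents for 58298.

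Counts were fitted with edgeR 4.0.16 in R 4.3.3 (TMM, filterByExpr, 1 coefficient per group, quasi-likelihood test, Benjamini-Hochberg adjustment over 18653 genes, threshold 0.05). The standard error of a log2 fold change was its size divided by the square root of F. Genes had a median biological coefficient of variation of 11.2%, so with 3 libraries per group small changes are at the limit of detection. Subunit ratios used exact permutation tests over all splits of 3 libraries against 3 (numpy 2.4.6). The code was tested on simulated data. Replicates differed by more than counting noise (chi-square per degree of freedom 3.56 to 12.6) and were counted separately.

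The members and the gene lists were chosen with earlier results of these data known. The values of 1 laminin gene are not reported here. All members are named, the called genes of each list (at most 6) and the 5 genes most correlated with ITGB4. The alternatives tried were a fit with DESeq2 1.42.0, edgeR with DESeq2 size factors or with plain library sizes, no filter or one of 5 CPM in 3 libraries, forward and reverse counts added, a fit of the compared pair of groups alone, a block for the replicate number, loess correction for GC content and length (span 0.3, 18187 genes) without and with that block, and omission of each library.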

Additional observations from a re-analysis of the deposited data

How the results depend on the processing

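Of the single-gene values under all alternatives, 849 kept their direction and side of the threshold, 27 passed it newly, 66 lost it and 24 changed sign. ITGB4 between WT and NLS Mut was called in all 19 alternatives. The number of members called between WT and NLS Mut (1) became 2 in a fit of these groups alone, 2 after the GC and length correction and 2 with the replicate block added to that correction (each time ITGB1 with ITGB4), and ranged from 1 to 3 as single libraries were omitted. Over all genes the calls in these fits to all libraries of the groups rose as well, to 315 of 17524, 429 of 18187 and 502 of 18187, from 94 of 18653. Between WT and Vector (0) the number of members called was 1 by DESeq2, 1 without the filter, 1 with the replicate block (ITGB1), 1 after the GC and length correction and 1 with both (ITGB4), and 0 to 3 under omission. The calls over all genes were 248, 289, 232, 202 and 249 in the first 5 of these settings, against 104. Between NLS Mut and Vector (1) the number of members called was 2 by DESeq2, 0 after the GC and length correction, 0 with both, and 0 to 4 under omission. The calls over all genes were 408 by DESeq2, 296 after the correction and 348 with both, against 148. The highest counts all came without Vector replicate 1, when 388, 1256 and 1002 of all genes were called, against 94, 104 and 148 with it.

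The linked genes called between WT and NLS Mut were 7, and 12 by DESeq2 and 11 after the GC and length correction. Between WT and Vector they were 2, and 4 by DESeq2 and 5 after the correction. Between NLS Mut and Vector they were 9, and 6 after the correction. The calls over all genes went from 94 to 288 and 429, from 104 to 248 and 202, and from 148 to 296 in these settings. With the replicate block the calls over all genes were 212, 232 and 230, and ITGB4 had log2 changes of 0.46, 0.17 and -0.29 with adjusted p of 2.68e-05, 0.203 and 0.0103. Same-numbered libraries correlated between groups by -0.03 to 0.29 in their deviations from the group means, and in 3 of 9 pairs a library correlated best with its own number. The labels do not say that a number marks a shared culture or day, so the block is given as an alternative.

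Changes of sign were small. After the GC and length correction, without and with the block, ITGB5 between WT and NLS Mut was -0.0005 and -0.0002. Between WT and Vector, ITGA3 was 0.0792 and 0.0792, ITGA5 0.0324 and 0.0325, and ITGB5 0.0216 and 0.0203. Between NLS Mut and Vector, ITGB1 was -0.0089 and -0.0088, and ITGB5 0.0221 and 0.0205. Under omission of single libraries, ITGA6 between WT and NLS Mut ranged from -0.0070 to 0.0825, ITGB5 from -0.0245 to 0.0508 and ITGB6 from -0.0693 to 0.1657. Between WT and Vector, ITGA3 ranged from -0.0516 to 0.0029, ITGA5 from -0.0569 to 0.0221 and ITGB5 from -0.0777 to 0.0061, and between NLS Mut and Vector ITGA2 ranged from -0.0872 to 0.0805. The cause of these shifts was not tested.

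The stricter filter left out ITGB8, whose 74 to 133 reads per library limit its precision. Another scaling of library size cannot alter a ratio within a library, so the subunit ratios were instead recomputed from both strands together and without each library. The outcomes of these recomputations are not given here.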
